A study of Mus musculus with 12 samples.

Results

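Potassium channel genes were read out from bulk RNA sequencing of mouse heart, as the 92 genes whose symbol is Kcn followed by letters and a number, out of 33615 gene symbols in the deposited table. The study had 12 libraries of frozen heart tissue, 4 in each of 3 groups: sham operation (Sham), injury by 30 min of ischemia followed by 2 h of reperfusion (I/R), and that injury in mice treated with ML264, an inhibitor of the KLF5 transcription factor (I/R + ML264). The label of the Sham group gives the same time of 2 h. The sources used here give no strain, sex, age, part of the heart, or dose and timing of ML264 for any group. Nor do they state that the libraries are from different animals; the spread behind every p-value is that between libraries, and part of it may be technical. The pattern takes in pore-forming subunits and accessory subunits. It leaves out Kcnrg and Kcne1l, which are in the table, and Kcne5 was not found under that symbol.

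Potassium channels carry the outward currents that repolarise the heart muscle cell and the inward rectifier current that sets its resting potential. In the mouse ventricle, fast Kv4 channels and slower delayed rectifiers carry most of the repolarising current, while Kir2 channels hold the resting potential and ATP-sensitive Kir6 channels open when ATP falls, as in ischemia. Pore-forming subunits come as Kv, KCNQ, EAG-related, Kir, K2P and calcium- or sodium-activated families, and accessory subunits bind them and alter their gating or trafficking.

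The libraries held 22.3 to 29.9 M (mega) estimated counts, and a gene without counts may have had up to 3, or 0.0969 to 0.136 CPM (counts per M, with TMM scaling of the libraries). Such limits cover counting error only. The tissue label matched its markers: the 10 cardiomyocyte markers summed to between 11820 and 16180 TPM (a level per transcript length, with each library scaled to 1 M) in every library. Of 7 atrial markers, Sln was at 0 in every library, Myl7 at 0 in all but I/R + ML264 library 1 (0.213 CPM), and Bmp10 and Myl4 had 9 and 103 counts in all. Nppa (mean 16.9 TPM, 6.42 to 40.4), Nr2f2 (2.42 TPM) and Dkk3 (0.511 TPM) were present, and the summed list ran from 8.56 to 44.5 TPM. Libraries of the same group differed in several ways. Ddx3y, a Y-linked gene, was at 38.8 to 52.0 CPM in all Sham libraries, I/R libraries 2 and 3 and I/R + ML264 libraries 3 and 4, and at 0.484 CPM or less in the rest, so that the libraries of each injured group did not all come from 1 animal. All libraries low in Ddx3y were from the injured groups, so this level was not balanced between Sham and either injured group. Fits with Y-linked levels as a covariate are reported below. Arntl, a core clock gene, was at 10.4 to 15.3 CPM in I/R library 1 and Sham libraries 2 and 3, and at 3.26 CPM or less elsewhere. Platelet markers summed to 163 TPM in I/R library 4 and 138 TPM in I/R + ML264 library 4, and to between 4.67 and 33.2 TPM elsewhere. Leaving out each library in turn is reported beside the results it touches.

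Of the 92 genes, 87 had counts and 57 passed the filter on low counts and were tested. Those with counts that were not tested held at most 90 counts over all 12 libraries, and Kcnh5, Kcnk10, Kcnk12, Kcnk16 and Kcnv1 had none. Taking a mean of 1 TPM over all libraries as expressed, 29 genes were expressed in these hearts, with Kcna2 (1.02 TPM) just inside and Kcnj10 (0.942 TPM) just outside. Kcnj14 (1.12 TPM) is among the 29 only through the I/R libraries (mean 2.54 TPM) and I/R + ML264 library 3. In Sham its mean was 0.0436 TPM. It passed the filter on low counts through the same libraries, so its place on either list is no separate support for its rise. The 10 highest genes held 60.1% of the summed potassium channel TPM, so the repertoire was broad in number but concentrated in level. TPM was computed with the longest annotated transcript of each gene. With the mean length of its transcripts, chosen after seeing the data, 36 genes reached 1 TPM, and the order of the highest genes changed.

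The Kir family, inward rectifiers, held the largest share of the summed TPM at 43.2%, with 8 of its 15 genes expressed. The 8 include Kcnj14, which is there only through the libraries named above. Kcnj2, which encodes the main cardiac inward rectifier subunit Kir2.1, was the highest of all at 19.5 TPM. Next stood Kcnj5 (14.6 TPM) and Kcnj3 (11.8 TPM), whose products form the acetylcholine-activated channel. Between libraries, Kcnj2 ranged from 10.8 to 28.2 TPM, Kcnj5 from 11.98 to 17.7 TPM and Kcnj3 from 6.93 to 23.3 TPM, so the order of these 3 was not fixed beyond their spread. Of the exon bases of Kcnj3, 31.1% also lie in a long noncoding RNA on the opposite strand, Gm26794, and reads of the pair cannot be told apart without strand. The same holds for Kcnj13 (1.32 TPM), also counted as expressed. Of its exon bases, 49.1% lie in the protein-coding gene Gigyf2 on the opposite strand, so its level is uncertain. Kcnj11 (7.02 TPM) and Kcnj8 (3.28 TPM), the pore subunits of ATP-sensitive channels, and Kcnj12 (4.15 TPM), a second Kir2 subunit, were also expressed.

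The Kv1 to Kv4 pore subunits held 15.1% of the summed TPM, and 7 of 17 were expressed. Kcnd2 (5.36 TPM) and Kcnd3 (2.84 TPM) encode the Kv4 subunits of the fast transient outward current. Kcna5 (2.73 TPM) encodes a subunit of a delayed rectifier, and Kcna4 (2.44 TPM) that of a slowly recovering transient current. Accessory subunits held 13.3%, of which Kcnip2, the calcium-binding partner of Kv4 channels, had 9.26 TPM. With mean transcript lengths Kcnip2 was first of all genes at 20.5 TPM, ahead of Kcnj11 at 17.9 TPM.

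K2P channels, which carry background leak currents, held 7.67%, and 2 of 14 were expressed. Kcnk3 was the highest at 7.70 TPM, against 0.499 TPM for Kcnk2, a stretch-activated member. The silent Kv modifiers, which do not conduct alone but alter other Kv subunits, held 6.94%. Of these, 2 of 10 were expressed, led by Kcng2 at 6.96 TPM. Calcium- and sodium-activated channels held 5.71%, and 2 of 8 were expressed, led by Kcnn2 at 3.54 TPM, a small-conductance calcium-activated subunit. KCNQ channels held 4.66% and were led by Kcnq1 (3.94 TPM), and the EAG, ERG and ELK group held 3.51%, most of it Kcnh2 (4.53 TPM). Their accessory partners were low: Kcne1 had 0.825 TPM, and Kcne2 had 3 counts in all, 1 each in Sham library 3 and I/R + ML264 libraries 2 and 4.

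**Figure D1:**
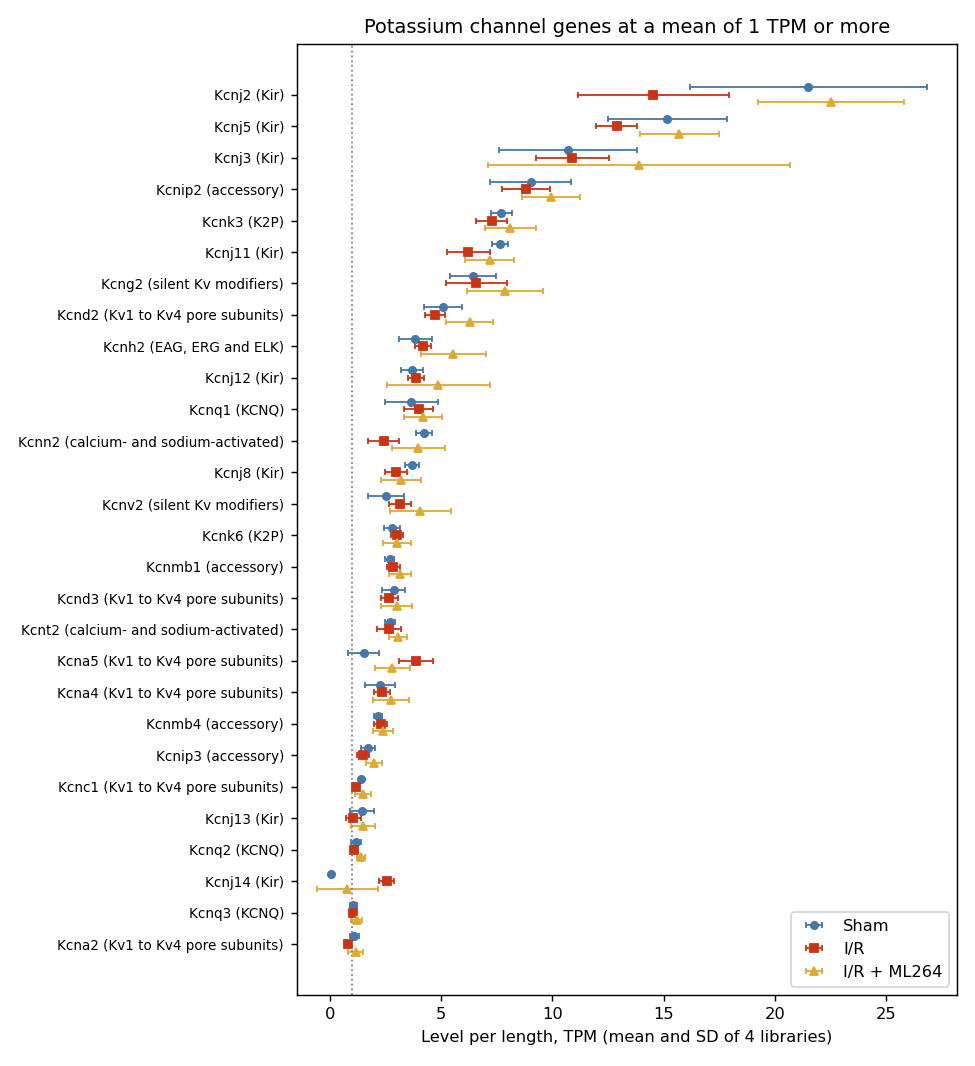
Mean TPM (horizontal axis, linear) with SD over 4 libraries for 28 of the 29 genes at a mean of 1 TPM or more, by group, with the family in brackets; the dotted line marks 1 TPM. Kcnj2, Kcnj5 and Kcnj3 lie above 10 TPM, and most genes lie under 5; TPM is not scaled by TMM factors, so changes are read from the tests.

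The first comparison, of injured with sham-operated hearts, addresses the effect of the injury. Of 57 potassium channel genes tested, 4 were called with edgeR's quasi-likelihood test at a Benjamini-Hochberg adjusted p under 0.05 over all 15952 genes, against a background of 7.75% of all genes called, and the share of 7.02% is near that background. Kcna5, Kcnj14 and Kcnn4 rose (4.58% of all genes were called higher) and Kcnn2 fell (3.17% of all genes were called lower). Values of the 2 groups did not overlap for 8 of the 57, against 15.8% of all genes. The median log2 fold change of the 57 was 0.13, beside 0.002 for all genes tested, and 6 of 57 had an unadjusted p under 0.05, against 23.2% of all genes.

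Kcna5 encodes Kv1.5, a subunit of the ultrarapid delayed rectifier, and lies on the minus strand at chr6:126532551-126535412 (GRCm38, GENCODE M21). Its level in Sham libraries 1 to 4 was 3.44, 1.74, 2.33 and 5.36 CPM. In the I/R libraries it was 10.6, 7.39, 8.33 and 8.80 CPM, and with ML264 it was 4.58, 6.42, 4.13 and 7.19 CPM. Every I/R library lay above every Sham library, and also above every ML264 library. The change from Sham to I/R was a log2 fold change of 1.45 ± 0.29 (SE, 95% interval 0.83 to 2.07; adjusted p = 0.0096), or 2.73-fold. It was called in all 12 fits that left out a library and in 13 of 14 other fits; with the Y-linked and Arntl levels together as covariates its adjusted p was 0.242. I/R libraries 2 and 3, which share high Ddx3y with all Sham libraries, had 7.39 and 8.33 CPM, above the highest Sham library. Of the libraries with high Arntl, Sham libraries 2 and 3 had the lowest Kcna5 of all (1.74 and 2.33 CPM) and I/R library 1 the highest (10.6 CPM).

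Kcnn4 encodes the intermediate-conductance calcium-activated channel, known from red cells, immune cells and endothelium, and lies on the plus strand at chr7:24370263-24386690. Sham libraries 1 to 4 had 2.76, 1.34, 1.42 and 1.16 CPM. The I/R libraries had 2.89, 3.18, 4.10 and 3.22 CPM, all above Sham, the lowest by a narrow margin over Sham library 1. Its log2 fold change was 1.02 ± 0.29 (SE; adjusted p = 0.0434). That call was lost in 9 of 12 fits that left out a library (any I/R library, Sham library 2, 3 or 4, or ML264 library 1 or 4; adjusted p up to 0.13) and in 5 of 14 other fits, where the adjusted p reached 0.419. Beside it, the summed TPM of 9 neutrophil markers ran from 2.19 to 3.81 over the Sham libraries, from 6.13 to 13.0 over the I/R libraries and from 2.84 to 19.3 with ML264. That of 8 endothelial markers ran from 142.8 to 188.5, 105.0 to 138.6 and 130.9 to 180.2 TPM. Of the 8, Kdr and Tek were called lower in I/R (edgeR adjusted p = 0.0323 and 0.0221) and 0 were called higher. Log2 fold changes were positive for 3 of the 8: Cldn5 (0.77), Pecam1 (0.05) and Cdh5 (0.04). The sum of 6 platelet markers ran from 4.67 to 21.6, 6.04 to 163 and 4.75 to 138 TPM. Macrophage markers, 8 in number, had overlapping sums: Sham 62.3 to 113 TPM, I/R 60.2 to 72.8 TPM, ML264 60.7 to 92.5 TPM. Of these macrophage markers, Adgre1 was called lower in I/R (edgeR adjusted p = 0.0174) and 0 were called higher. None of these markers was at 0 in every library, 3 of 7 tested neutrophil markers rose, and their part in the level of Kcnn4 was not tested. In bulk tissue, fewer cells of a type and less RNA per cell cannot be told apart.

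The 250 bases before the RefSeq start (GRCm38.p6) of Kcna5, at chr6:126535556-126535805 on the minus strand, and of Kcnn4, at chr7:24370013-24370262 on the plus strand, are shown because both genes rose in I/R and the drug is aimed at a KLF factor. Capitals mark matches on either strand to CCNCNCCC, the motif of the KLF and SP families, and in Kcna5 also the match to the glucocorticoid receptor motif, GNACA and TGTNC with NNN between them.
Kcna5: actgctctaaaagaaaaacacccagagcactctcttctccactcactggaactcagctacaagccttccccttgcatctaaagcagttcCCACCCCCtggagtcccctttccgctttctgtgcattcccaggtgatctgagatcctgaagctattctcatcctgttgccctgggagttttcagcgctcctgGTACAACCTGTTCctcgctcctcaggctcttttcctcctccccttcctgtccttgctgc
Kcnn4: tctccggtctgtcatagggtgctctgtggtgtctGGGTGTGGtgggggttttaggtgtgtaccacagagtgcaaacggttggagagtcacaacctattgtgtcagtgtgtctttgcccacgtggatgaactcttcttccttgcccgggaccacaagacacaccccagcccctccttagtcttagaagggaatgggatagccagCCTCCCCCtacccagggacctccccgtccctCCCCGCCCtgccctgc
The KLF and SP motif was found once in Kcna5, starting 161 bases before the start, and 3 times in Kcnn4, starting 216, 47 and 16 bases before it. It is a common motif, held by 45.9% of the 32851 RefSeq windows of this length and by 63 of the 92 windows (68.5%) of the 67 potassium channel genes in the table. The glucocorticoid receptor motif, starting 59 bases before the Kcna5 start, was held by 0.4% of all windows and by 1 of the 92 potassium channel windows. AP-1 (TGANTCA, 6.7% of all windows) and CREB and ATF (TGACGTCA, 1.5%) had no match in either. A match describes letters in a window and is not evidence of binding. Kcnj14 was not in the table.

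Kcnj14 encodes Kir2.4, an inward rectifier of low cardiac abundance, and lies at chr7:45816460-45824782 on the minus strand. Sham libraries held 4, 1, 0 and 4 counts, and I/R libraries held 149, 111, 141 and 167 counts. With ML264, libraries 1, 2 and 4 held 1, 5 and 7 counts and library 3 held 150. In CPM the I/R libraries were at 4.36 to 6.25 and the Sham libraries at 0.181 or less. The ratio of summed counts of I/R to Sham, scaled to library size, was 64.7 (95% counting interval 33.8 to 142). That interval leaves out the spread between libraries. The fitted log2 fold change, which includes it, was 5.92 ± 1.49 (SE, 95% interval 2.58 to 9.27, edgeR adjusted p = 0.0419).

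That call was lost in 8 of 12 fits that left out a library (each Sham and each I/R library; adjusted p from 0.0684 to 0.115) and in 5 of 12 other fits. Of the 31-base words of Kcnj14 transcripts, 35.6% also occur in other genes, chiefly Gm5522, which held 0 to 0.0779 CPM. The value of Kcnj14 is therefore uncertain, and leaving out transcripts that share over 25% of their words removed the gene altogether, as it did Kcnj13.

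Kcnn2 encodes the small-conductance channel SK2, which in the heart couples calcium entry to repolarisation, mainly in atrial cells. Sham libraries 1 to 4 had 10.7, 11.8, 11.2 and 12.1 CPM. I/R libraries had 8.64, 7.39, 6.999 and 4.87 CPM, and ML264 libraries had 12.1, 11.3, 7.24 and 9.53 CPM. Every I/R library was below every Sham library. The log2 fold change was -0.71 ± 0.17 (SE, 95% interval -1.08 to -0.35; adjusted p = 0.0198). The call was lost without Sham library 4 (adjusted p = 0.0556) or I/R library 4 (adjusted p = 0.0576), with the Arntl covariate (adjusted p = 0.0927), and with the Y-linked and Arntl covariates together (adjusted p = 0.283). Exons of Kcnn2 share 3.8% of their bases with an antisense gene and 4.3% with a pseudogene on the opposite strand, which this unstranded library type cannot separate.

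**Figure D2:**
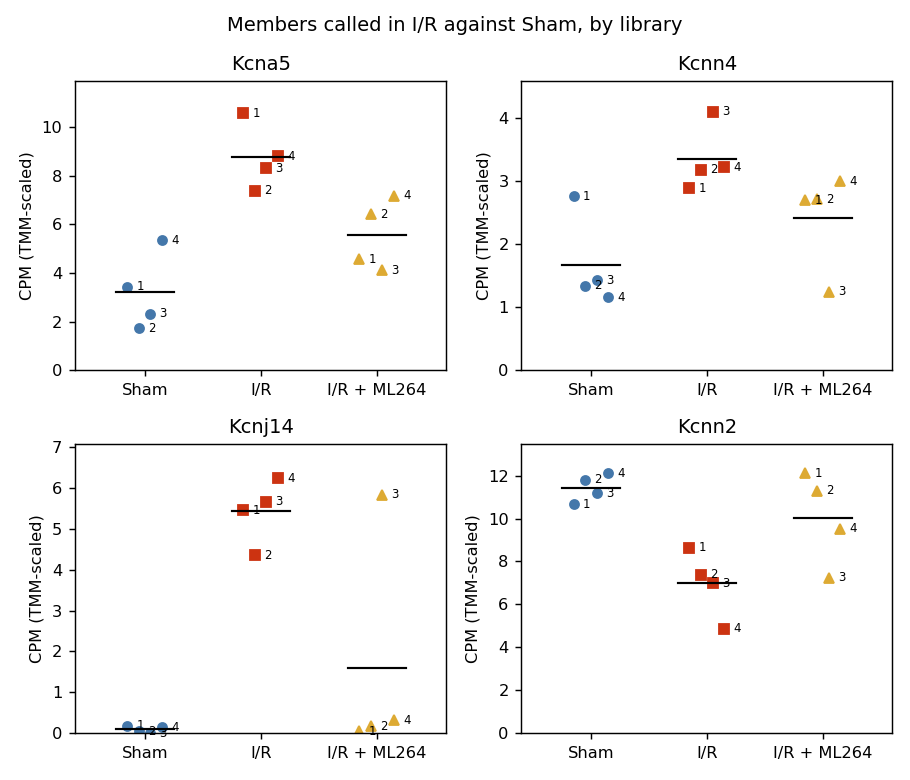
CPM (vertical axis, linear from 0) of Kcna5, Kcnn4, Kcnj14 and Kcnn2 in each library, with the library number beside each point and a bar at the group mean. The I/R libraries lie above Sham for Kcna5, Kcnn4 and Kcnj14 and below Sham for Kcnn2, and ML264 library 3 stands apart for Kcnj14.

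Among the genes of the main cardiac potassium currents, 19 of 20 were tested (not Kcne2). Of these, 3 were called in I/R against Sham, against 7.75% of all genes: Kcna5, Kcnn2 and Kcnj14, whose value is uncertain. The list was chosen with earlier results of these data known, so its share of called genes is not an independent comparison with that of all genes. For the other 16 the 95% interval of the change lay within 2-fold in either direction, as it did for 70.6% of all genes. The fast transient outward current genes were close to level. Kcnd2 had 19.4, 19.2, 22.1 and 16.2 CPM in Sham and 18.5, 18.3, 21.2 and 19.3 CPM in I/R, a log2 fold change of 0.01 ± 0.10 (SE; edgeR adjusted p = 0.975). Kcnip2 ranged from 13.8 to 24.2 CPM in Sham and from 19.9 to 25.2 CPM in I/R, with overlapping groups (log2 fold change 0.07 ± 0.15, adjusted p = 0.827). Klf15, a transcription factor known to control Kcnip2, was at 1.60 to 3.77 CPM in Sham and 4.19 to 6.96 CPM in I/R, and it rose by a log2 fold change of 0.85 ± 0.25 (edgeR adjusted p = 0.0477). That call was lost in 11 of 12 fits that left out a library, all but the one without ML264 library 1, with an adjusted p of up to 0.131, and in 7 of 14 other fits, with an adjusted p of up to 0.224.

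Of the other delayed rectifier genes, Kcnh2 had a log2 fold change of 0.25 ± 0.14 (adjusted p = 0.314) and Kcnq1 one of 0.25 ± 0.18 (adjusted p = 0.442), neither past the threshold.

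Kcnj2, the inward rectifier gene of highest level, did not pass the test. Its Sham libraries had 76.2, 109, 88.4 and 68.8 CPM and its I/R libraries 43.5, 81.7, 59.5 and 69.1 CPM. The groups overlapped, and the log2 fold change of -0.43 ± 0.19 (95% interval -0.84 to -0.02) had an adjusted p of 0.193. With ML264, Kcnj2 was at 78.0, 88.2, 99.6 and 76.6 CPM. Kcnj12 and Kcnj5, by contrast, had log2 fold changes of 0.19 ± 0.22 and -0.10 ± 0.12, both within overlapping groups.

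The genes of ATP-sensitive channels did not pass the test. Kcnj11 was lower in each I/R library (16.4, 15.4, 16.5 and 13.6 CPM) than in each Sham library (18.1, 17.5, 17.7 and 17.6 CPM), yet the size was small, a log2 fold change of -0.19 ± 0.099 (adjusted p = 0.253). Its partner Abcc8, the sulfonylurea receptor SUR1, lies 3.8 kb away on the same chromosome and had a log2 fold change of 0.37 ± 0.13 (edgeR adjusted p = 0.0945). Abcc9, SUR2, the main ventricular receptor, was at 123 TPM against 6.14 TPM for Abcc8, and its log2 fold change was 0.04 ± 0.068. Per length, Kcnj11 stood at 0.0619 ± 0.0053 (SD, n = 4) of Abcc9 in Sham, 0.0524 ± 0.0066 in I/R and 0.0568 ± 0.0035 with ML264.

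**Figure D3:**
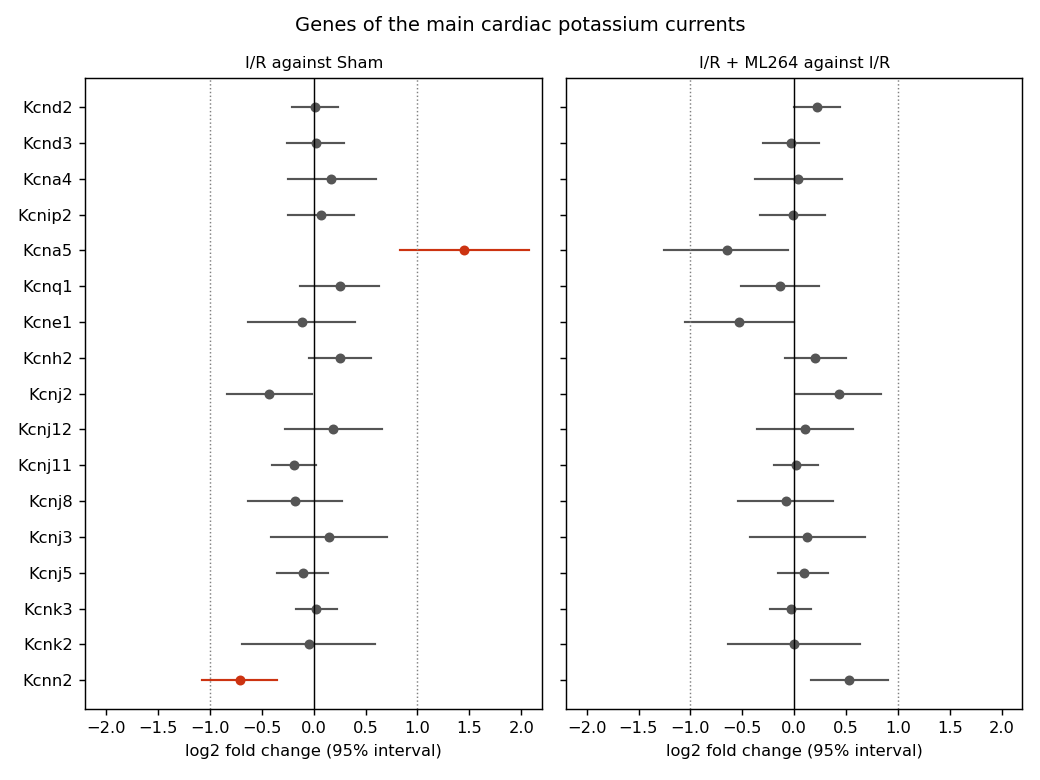
Log2 fold change (horizontal axis) with its 95% interval for 17 tested genes of the main cardiac potassium currents, with called genes in red and dotted lines at a 2-fold change; Kcnj14, whose value is off this scale, is not drawn. Kcna5 and Kcnn2 are called in I/R against Sham, and no gene is called with ML264.

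By family, 1 of 14 Kv1 to Kv4 subunits, 1 of 12 Kir genes and 2 of 7 calcium- and sodium-activated genes were called in I/R against Sham. No silent modifier, EAG-related, KCNQ, K2P or accessory gene was called, and the share of all genes called was 7.75%. The 2 called calcium- and sodium-activated genes changed in opposite directions, Kcnn4 higher and Kcnn2 lower. Median log2 fold changes per family ran from -0.07 for Kir to 0.39 for the calcium- and sodium-activated genes, beside 0.002 for all genes. Among accessory genes, Kcnmb1 (8.28 ± 0.31 CPM in Sham, 9.46 ± 0.48 in I/R; SD, n = 4) and Kcnab1 (2.34 ± 0.41 and 3.42 ± 0.87 CPM) did not overlap between groups with I/R higher, and Kcnip4 (1.70 ± 0.25 and 1.12 ± 0.16 CPM) with I/R lower. None of them passed the threshold, and groups did not overlap for 15.8% of all genes. The Kcnmb1 gene lies within Kcnip1, on the opposite strand.

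**Figure D4:**
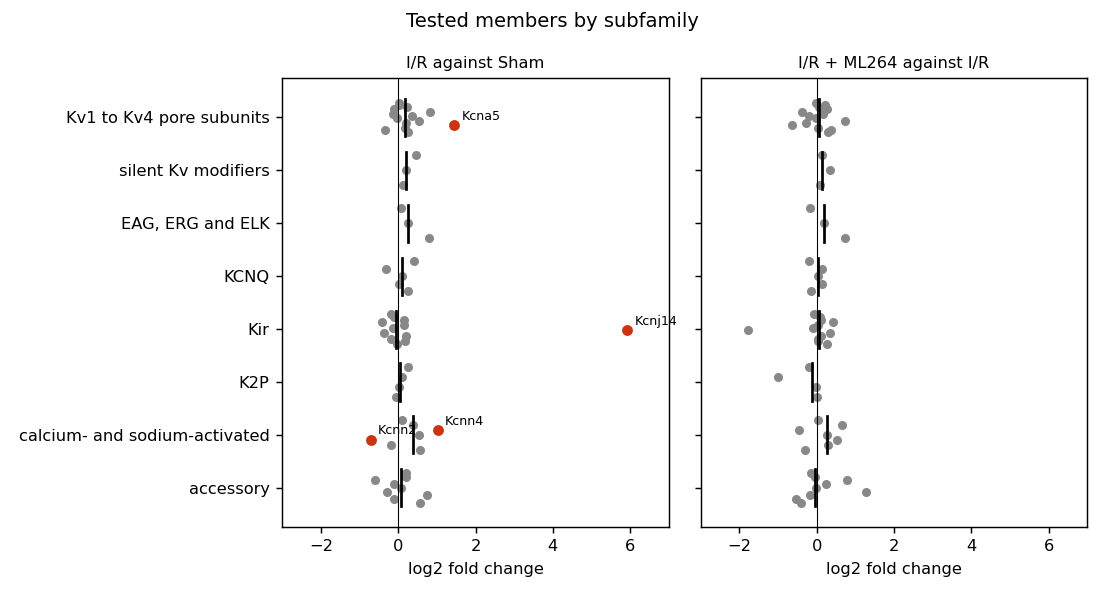
Log2 fold change (horizontal axis) of the 57 tested genes by family, with black bars at family medians and called genes in red. Most genes lie near 0 in both comparisons, and Kcnj14, Kcna5 and Kcnn4 lie to the right in I/R against Sham.

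The effect of the inhibitor after injury is addressed by I/R + ML264 against I/R. No potassium channel gene was called with edgeR, against 0.0502% of all genes, and none was called with DESeq2 or limma voom, while 5 of 57 had an unadjusted p under 0.05, against 10.4% of all genes. Kcna5 was the single gene whose groups did not overlap (5.62% of all genes did not). Its log2 fold change was -0.65 ± 0.28 (95% interval -1.25 to -0.06; edgeR adjusted p = 0.431). Kcnn2 had the smallest adjusted p, with 0.53 ± 0.17 (adjusted p = 0.297), and Kcnj2 was at 0.43 ± 0.19 (adjusted p = 0.447). These signs are opposite to those in I/R against Sham, but both comparisons use the same 4 I/R libraries, so this is not independent.

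For Kcnj14, leaving out ML264 library 3 changed the call: the log2 fold change went from -1.79 ± 1.03 (adjusted p = 0.591) to -5.04 (adjusted p = 0.000273). For 16 of the 19 tested current genes the interval lay within 2-fold, Kcna5, Kcne1 and Kcnj14 being the exceptions. It did so for 75.5% of all genes.

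I/R + ML264 against Sham asks what remained different from uninjured tissue. No potassium channel gene was called with edgeR, against 0.288% of all genes, or with DESeq2 or limma voom, and 8 of 57 had an unadjusted p under 0.05, against 13% of all genes. Groups did not overlap for Kcnj11 and Kcne1, both lower with ML264, against 7.37% of all genes. Kcne1, the partner of Kcnq1 in the slow delayed rectifier, had 1.86, 2.50, 2.54 and 2.18 CPM in Sham and 1.77, 1.65, 1.25 and 1.15 CPM with ML264, a log2 fold change of -0.64 (edgeR adjusted p = 0.273). Kcnh2 had the smallest adjusted p, with a log2 fold change of 0.45 (edgeR adjusted p = 0.173).

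Of 30 channel partners and other genes of cardiac excitability, 29 were tested. Klf15 was the single one called in I/R against Sham, where 7.75% of all genes were called, and none was called lower. With ML264 none passed the threshold, either against I/R (0.0502% of all genes did) or against Sham (0.288%). The median log2 fold change of these 29 genes was 0.04 in I/R against Sham, beside 0.002 for all genes.

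**Figure D5:**
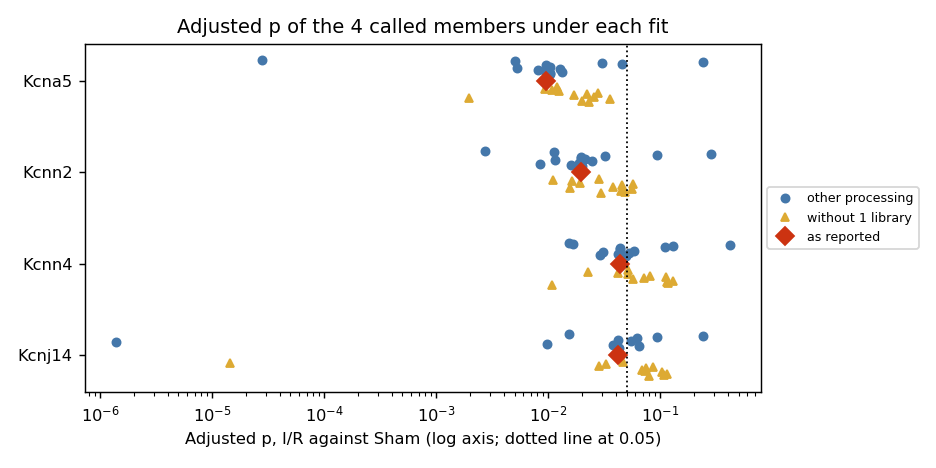
Adjusted p (horizontal axis, log scale) of Kcna5, Kcnn2, Kcnn4 and Kcnj14 in I/R against Sham as reported, under other processing and without 1 library, with the threshold of 0.05 dotted. Kcna5 stays below the line in all fits without 1 library, while many points of Kcnn4 and Kcnj14 lie to its right.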

How the data were processed

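Expression in 12 mouse heart libraries was read from 1 table. The authors made and deposited estimated counts per transcript with kallisto, after FastQC, against GRCm38 (mm10), per the submitters' processing notes, without normalization. The sources used here name no tool version, trimming step or annotation release. Per the labels' protocols, total RNA came from TRIzol extraction and Nextera XT libraries, which do not mark strand.

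Transcripts were summed per symbol (the 92 genes had 356 transcripts), rounded, and filtered with filterByExpr (minimum count 10). One model over all libraries was fitted with edgeR 4.0.16 in R 4.3.3 (TMM, robust quasi-likelihood) and checked on simulated data. Adjusted p-values run over 15952 genes. TPM used the longest GENCODE M21 transcript of each gene. Named genes are called members, cardiac current genes, the 10 highest by TPM, the top gene of each family, the smallest adjusted p per comparison and called partner genes. Of these, 1 is not reported here. The members and lists were chosen with earlier results of these data known. Alternatives included DESeq2 1.42.0, limma 3.58.1 voom, other factors and filters, covariates and leaving out each library.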

Additional observations from a re-analysis of the deposited data

Results flagged for a closer look

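Of 63 groups of 4 libraries examined (21 named genes in 3 groups), 4 held a library that stood apart from the others of its group by Dixon's criterion; chance alone flags about 1 in 20 groups. In Sham library 2, Kcna4 was at 11.05 CPM (6.48 to 7.26 in the others) and Kcnq1 at 11.55 CPM (6.61 to 7.26). That library also had high Arntl (10.4 CPM). Kcnj14 stood at 5.842 CPM in I/R + ML264 library 3, against 0.0355 to 0.309 CPM in the others and 4.36 to 6.25 CPM in I/R. Kcnn4 stood at 2.759 CPM in Sham library 1 (1.16 to 1.42 CPM in the others), where platelet markers summed to 21.6 TPM. What set these libraries apart was not tested.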

How the results depend on the processing

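The 4 members called in I/R against Sham became 2 with the replicate block, 2 with the Y-linked covariate, 1 with the Arntl covariate and 0 with both covariates; the cause was not tested. Over all fits the log2 fold changes stayed between 1.2 and 1.82 for Kcna5, 5.50 and 6.83 for Kcnj14, -0.84 and -0.55 for Kcnn2, and 0.87 and 1.35 for Kcnn4. Leaving out 1 library gave 1 to 4 called members in that comparison and 0 to 1 in I/R + ML264 against I/R (Kcnj14, without ML264 library 3). Other alternatives gave 3 or 4 in I/R against Sham and 0 in I/R + ML264 against I/R. With ML264 against Sham the count was 0 under every alternative run. Same-numbered libraries did not deviate together (correlations -0.11 to 0.10, beside -0.10 to 0.14 for different numbers). That shows no strong effect shared by number, but it cannot establish that the libraries were unpaired. Over the named genes and alternatives, 1551 values kept their direction and side of the threshold, 50 called values lost the call, 29 uncalled values moved by more than their SE, 1 gained a call and 0 reversed. DESeq2 gave Kcnj14 no adjusted p in I/R against Sham. At 0.5 TPM 42 genes counted as expressed and at 2 TPM 22. Depth limits the lowest genes: those at a few counts cannot be ranked.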

Other observations

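Kcnip1, a Kv4 partner, was at 10.4 CPM in I/R + ML264 library 2 alone, and at 1.99 ± 0.28 CPM (SD, n = 4) in Sham and 1.63 ± 0.24 in I/R. That library also had the highest Kcnj3 (75.3 CPM) and Kcnj12 (12.7 CPM), and the highest summed atrial (44.5 TPM) and neutrophil (19.3 TPM) markers; their part in these levels was not tested.

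The deposited transcript labels within a gene were not stable across libraries. Of 10041 genes with at least 20 counts in every library, 10 had the same top transcript in all 12, and of the 36 potassium channel genes among them, 0 did. Of 798 genes with 2 transcripts and at least 100 counts in every library, the first listed was the larger in a median of 6 of 12 libraries. No test here uses single transcripts of a gene, and gene sums do not depend on the split within a gene. The cause was not tested.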
